A study of Rattus norvegicus with 8 samples.

Results

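Hypothalamic releasing hormones and their receptors were examined in female and male rats through 10 genes: the hormone genes Crh, Trh, Ghrh and Sst, and Crhr1, Crhr2, Crhbp, Trhr, Sstr1 and Sstr2, which encode receptors and a binding protein for them. The genes were taken as every non-control spot that the array files name for them, which gave 22 of 42877 spots, 13 of 30367 probes and 10 of 19204 named genes. Crh, which had the smallest p of the 10, was 1.82-fold higher in females by its brightest probe (95% confidence interval 1.25 to 2.66). Its second probe gave 1.64-fold. The log2 ratio of the brightest probe was 0.86 with all samples and 0.57 without male replicate 2, whose hypothalamus markers were low. No member passed the threshold once p-values were adjusted over all probes.

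Neurons of the hypothalamus release these peptides into the portal blood of the pituitary. Corticotropin-releasing hormone (CRH) drives the adrenal axis, thyrotropin-releasing hormone (TRH) drives thyrotropin and prolactin, growth hormone-releasing hormone (GHRH) drives growth hormone, and somatostatin restrains growth hormone and thyrotropin. CRH acts on the receptors CRHR1 and CRHR2 and is held in check by CRH-binding protein, TRH acts on its own receptor, and somatostatin acts on a receptor family that includes SSTR1 and SSTR2. CRH, TRH and somatostatin are also made outside the hypothalamus, somatostatin above all in inhibitory interneurons of the cortex and hippocampus.

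RNA came from the hypothalami of 4 Sprague Dawley females in estrus and 4 Sprague Dawley males. All were 3 to 4 months old, housed singly under 14 h of light and 10 h of dark with food and water freely available. Each of 4 two-colour arrays on 1 slide held 1 female and 1 male of the same replicate number in opposite dyes, with females in Cy3 on arrays 1 and 3 and in Cy5 on arrays 2 and 4. Every female was in estrus, so sex and stage of the cycle cannot be told apart. In bulk tissue, fewer cells of a type and less RNA per cell cannot be told apart either.

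Net signal (spot less local background) had a median of 502 to 530 intensity units in the 4 samples in Cy3 and of 148 to 272 in the 4 in Cy5. No spot was saturated, and the number of arrays limits the precision. Of 16 hypothalamus marker genes on the array, 13 were well above background in all 8 samples, Sim1, Otp and Rax were so in 7, and 0 of the 16 were so in none. One library stood apart. Each dye carried 2 females and 2 males, so a sample's deviation is given as its log2 level less the median of the 4 samples in the same dye. The median deviation over the 16 hypothalamus markers was -2.20 in male replicate 2, against -0.03 to 0.15 in the other 7 samples. Over 16 markers of cortex, hippocampus and striatum it was 1.01 in male replicate 2 and 0.44 in female replicate 2, against -0.10 to 0.03 in the other 6. The log2 of the summed hypothalamus marker level, less the dye's median, ran from -0.07 to 0.34 in females and from -2.97 to 0.09 in males. For the cortex, hippocampus and striatum markers it ran from -0.03 to 0.38 in females and from -0.12 to 0.68 in males. Each of these 16 markers was well above background in all 8 samples. The part of these markers in the results was not tested.

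The promoter stretches of the genes whose levels moved most between animals, or that share a motif, show which letters lie at their start sites. They run from 90 bases before to 30 bases after the start, on the gene's own strand, and are RefSeq sequences of the GRCr8 build. Of the 10 genes, 8 were in the promoter table, and Crh and Trhr were not. Capitals mark the full cyclic AMP response element TGACGTCA or, in Trh, its half-site TGACG, which appears there on the other strand.
Trh, chr4:126301733-126301852, minus strand: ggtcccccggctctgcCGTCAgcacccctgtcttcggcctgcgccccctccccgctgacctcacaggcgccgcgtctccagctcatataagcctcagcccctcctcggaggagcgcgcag
Ghrh, chr3:166431851-166431970, minus strand: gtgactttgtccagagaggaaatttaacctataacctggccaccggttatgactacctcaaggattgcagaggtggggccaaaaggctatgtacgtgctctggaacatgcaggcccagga
Sst, chr11:90461456-90461575, plus strand: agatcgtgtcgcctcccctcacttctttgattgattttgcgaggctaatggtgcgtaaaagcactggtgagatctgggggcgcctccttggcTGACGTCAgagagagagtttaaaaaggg
Sstr2, chr10:99163263-99163382, plus strand: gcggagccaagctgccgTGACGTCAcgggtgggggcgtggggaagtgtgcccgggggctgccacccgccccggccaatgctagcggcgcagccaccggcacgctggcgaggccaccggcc

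The motifs were searched in the whole window from 250 bases before to 50 bases after each start. The full element, searched on both strands, lay 3 to 10 bases after the RefSeq start of Sst and at bases -73 to -66 of Sstr2, and 1.912% of 27457 rat promoters held it. The half-site TGACG, which the full element contains, was found on either strand in Trh, Sst, Crhr2, Crhbp, Sstr1 and Sstr2 and in 21.96% of all promoters. In Trh it lay at bases -74 to -70. The nuclear receptor half-site AGGTCA, on either strand, lay at bases -35 to -30 of Trh and also in the Crhbp window, against 15.68% of all promoters. TATAAA on the gene's strand was found in Crhbp and in 9.08% of all promoters. The palindromic estrogen response element was found in none of the 8 windows and in 0.02549% of all promoters. The Ghrh window held none of these motifs.

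Crh, the gene of corticotropin-releasing hormone, was read by a pair of probes on chromosome 2 of the rn4 build, on the minus strand. The brighter probe, at chr2:104764051-104764110, gave log2 levels of 10.08, 9.29, 10.38 and 9.59 in female replicates 1 to 4, against 8.69, 8.56, 8.68 and 9.94 in male replicates 1 to 4. Within each dye both females stood above both males, and male replicate 4, in Cy3, overlapped the females only across dyes. Every female stood above every male of the same dye in 5.31% of the 14488 genes measured on all 4 arrays. The ratios of female over male on arrays 1 to 4 were 1.40, 0.72, 1.70 and -0.36 on the log2 scale. The fitted log2 ratio was 0.86 ± 0.20 (standard error, 4 arrays). The unadjusted p was 0.011 in the limma fit and the Benjamini-Hochberg adjusted p was 0.555. That fit moderates each probe's variance with that of all probes, so the error is not from the 4 Crh ratios alone. Crh was the 1 member of 10 below an unadjusted p of 0.05, against 8.52% of 14603 genes, and 0 members passed the adjusted threshold, against 0% of the genes.

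The second Crh probe, at chr2:104764253-104764312, was printed on 10 spots per array. Its levels were 9.40, 9.49, 9.65 and 9.72 in female replicates 1 to 4, against 9.05, 8.17, 9.06 and 9.15 in male replicates 1 to 4. Every female was above every male with no regard to dye. That held for 1.12% of genes by their brightest probe, and it did not hold for the brighter Crh probe. Its ratios were 0.36, 1.32, 0.59 and 0.57 on arrays 1 to 4, all above 0, and the standard deviation over the spots of an array ran from 0.12 to 0.28. The fitted ratio was 0.71 ± 0.15, with an unadjusted p of 0.0075 and an adjusted p of 0.555 (limma, Benjamini-Hochberg). The array on which the brighter probe fell below 0 was array 4, where the female was in Cy5. That probe's dye term was -0.68 (log2 of Cy5 over Cy3), against 0.24 for the second probe. With the dye means removed, the probes followed each other across the 8 samples at r = 0.995.

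Male replicate 2 had the lowest Crh, at -1.45 less its dye's median, against -0.30 to -0.07 in the other 3 males. The Crh ratio was 0.57 with male replicate 2 left out and female replicate 2 kept in a fit of separate channels, with an unadjusted p of 0.0045 and an adjusted p of 0.434 (limma, Benjamini-Hochberg). With each array left out in turn it ran from 0.59 without replicate 2 to 1.13 without replicate 4. The unadjusted p was 0.0581 without replicate 3 and 0.0626 with no term for dye, and the adjusted p was 0.0316 without replicate 4 (limma, Benjamini-Hochberg). In that last fit 7.53% of all genes passed the adjusted threshold. Array 2 was then the only array with the female in Cy5, so the sex and dye terms fitted it exactly. A gene's own error in that fit came from arrays 1 and 3 alone.

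**Figure D1:**
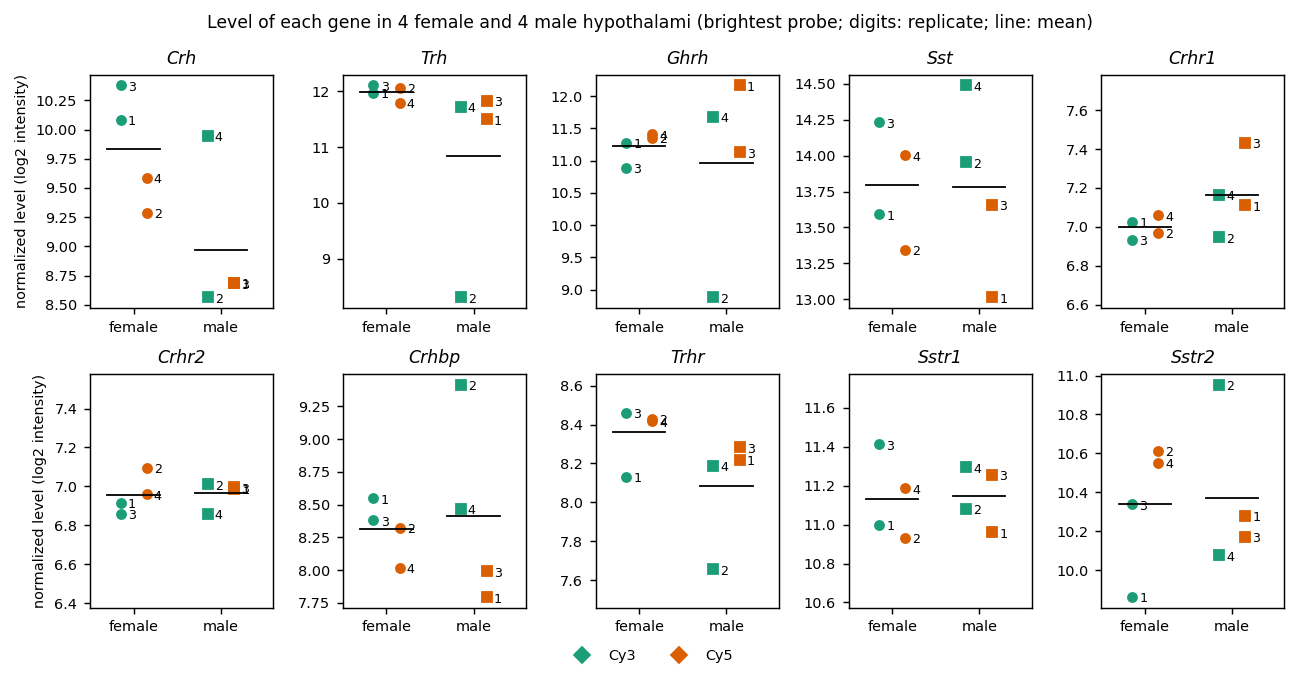
Normalized log2 intensity of the brightest probe of each of the 10 genes in 4 females (left) and 4 males (right), coloured by dye, with the replicate number beside each point and the group mean as a line. In Crh both females of each dye lie above both males of that dye, and male replicate 2 is far below the other samples in Trh (8.31) and Ghrh (8.88) and above them in Crhbp (9.41) and Sstr2 (10.95).

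Trh, the gene of thyrotropin-releasing hormone, had the largest fitted ratio of the 10 genes, and most of it came from array 2. Its probe lies at chr4:126425344-126425403 on the minus strand (rn4). Levels were 11.98, 12.07, 12.11 and 11.79 in female replicates 1 to 4, against 11.50, 8.31, 11.83 and 11.72 in male replicates 1 to 4. Across dyes the females ran from 11.79 to 12.11. Male replicate 3 lay within that range, male replicates 4 and 1 lay below it at 11.72 and 11.50, and male replicate 2 lay far below. The ratios were 0.48, 3.76, 0.28 and 0.07 on arrays 1 to 4. Trh was the 1 member above 0 on all 4 arrays, as were 5.06% of the genes.

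The fitted Trh ratio of 1.14 ± 0.64 had an unadjusted p of 0.143 and an adjusted p of 0.566 (limma, Benjamini-Hochberg). It was larger in size than 99.9% of the genes tested. Without replicate 2 it was 0.22 (unadjusted p 0.0534), and with only male replicate 2 left out it was 0.28 (unadjusted p 0.038). Without replicate 4 it was 2.07 ± 0.08, with an adjusted p of 0.0309 (limma, Benjamini-Hochberg). In that fit 31.1% of all genes were below an unadjusted p of 0.05. Array 2, which held male replicate 2, was fitted exactly there, so the gene's own error came from arrays 1 and 3 alone.

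Ghrh, the gene of growth hormone-releasing hormone, was higher in males on 3 of 4 arrays and higher in the female on the array of male replicate 2. Its probe lies at chr3:148027237-148027296 on the minus strand (rn4). Levels were 11.28, 11.35, 10.89 and 11.41 in female replicates 1 to 4, against 12.17, 8.88, 11.13 and 11.68 in male replicates 1 to 4. The males spread both above and below the females. The ratios were -0.89, 2.47, -0.24 and -0.27 on arrays 1 to 4, and the fitted ratio was 0.27 ± 0.49 (95% interval -1.06 to 1.59, unadjusted p 0.611). Without replicate 2 it was -0.42 (unadjusted p 0.0588), and with only male replicate 2 left out it was -0.40 (unadjusted p 0.15), so the direction turned with that animal.

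Sst, the gene of somatostatin, was close between the sexes in the fit, and its ratio went with the dye. Its probe lies at chr11:79126157-79126216 on the plus strand (rn4). Levels were 13.59, 13.35, 14.23 and 14.00 in female replicates 1 to 4, against 13.01, 13.95, 13.66 and 14.49 in male replicates 1 to 4. The groups overlapped throughout, with the highest and the lowest sample both male. The ratios were 0.58, -0.61, 0.57 and -0.49 on arrays 1 to 4, above 0 where the female was in Cy3 and below 0 where the female was in Cy5. The dye term was -0.56 with an adjusted p of 0.022 (limma, Benjamini-Hochberg), which 13.3% of genes passed. With that term the fitted ratio was 0.015 ± 0.06, a 1.01-fold value with a 95% interval of 0.896 to 1.14. That interval is taken within arrays, where the female and male lay nearly alike. With no replicate block the ratio was 0.015 ± 0.27. With male replicate 2 also left out it was -0.028 ± 0.30. In male replicate 2, Sst lay at -0.14 less its dye's median, within the range of the other 7 samples, unlike the other 3 hormone genes.

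**Figure D2:**
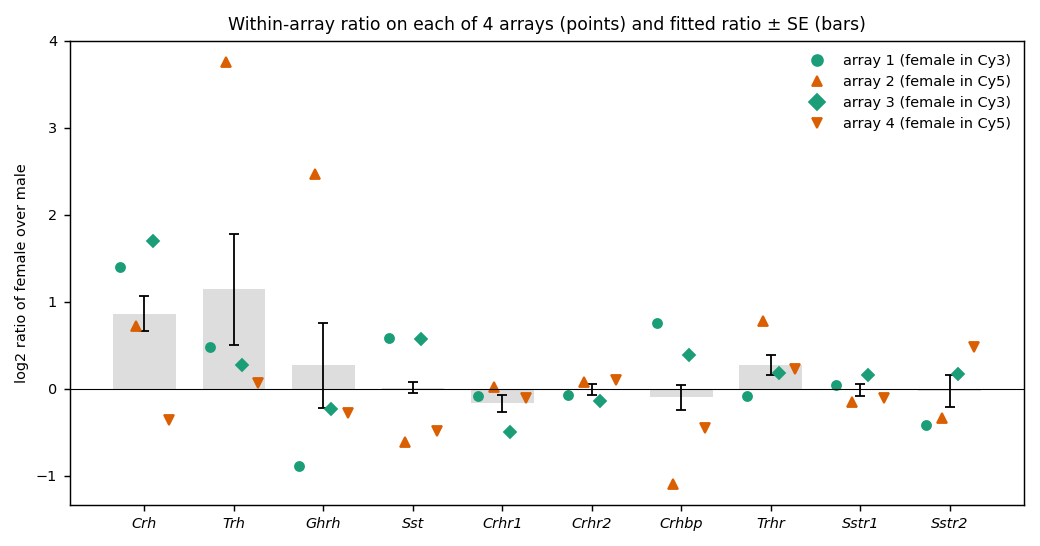
Log2 ratio of female over male within each of the 4 arrays (points, coloured by the female's dye) and the fitted ratio with its standard error (grey bars) for the 10 genes. Array 2 stands apart in Trh (3.76) and Ghrh (2.47), while the ratios of Sst, Crhr2, Crhbp and Sstr1 change sign with the dye.

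The spread of Trh, Ghrh and Crh over the samples depended on male replicate 2, and that of Sst lay mostly between arrays. With dye means removed, the standard deviation over the 8 samples was 1.30 for Trh, 0.936 for Ghrh, 0.654 for Crh and 0.405 for Sst. These lay at the 99.8, 99.1, 97.2 and 89.8 percentiles of all genes compared. Over the 7 samples without that animal it was 0.219 for Trh, 0.430 for Ghrh, 0.377 for Crh and 0.440 for Sst, at the 81.3, 96.6, 95.04 and 96.8 percentiles. Trh thus had the widest spread of the 4 with male replicate 2 and the narrowest without it. In Sst the female and male of an array lay nearly alike. Their deviations from the dye's median were -0.50 and -0.49 on array 1 and 0.50 and 0.40 on array 4. Differences between arrays and between pairs of animals cannot be told apart there. The deviation of male replicate 2 was -3.54 in Trh, -2.20 in Ghrh and -1.45 in Crh, each of the same sign as its hypothalamus marker median. The part that this animal's tissue markers have in these values was not tested.

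**Figure D3:**
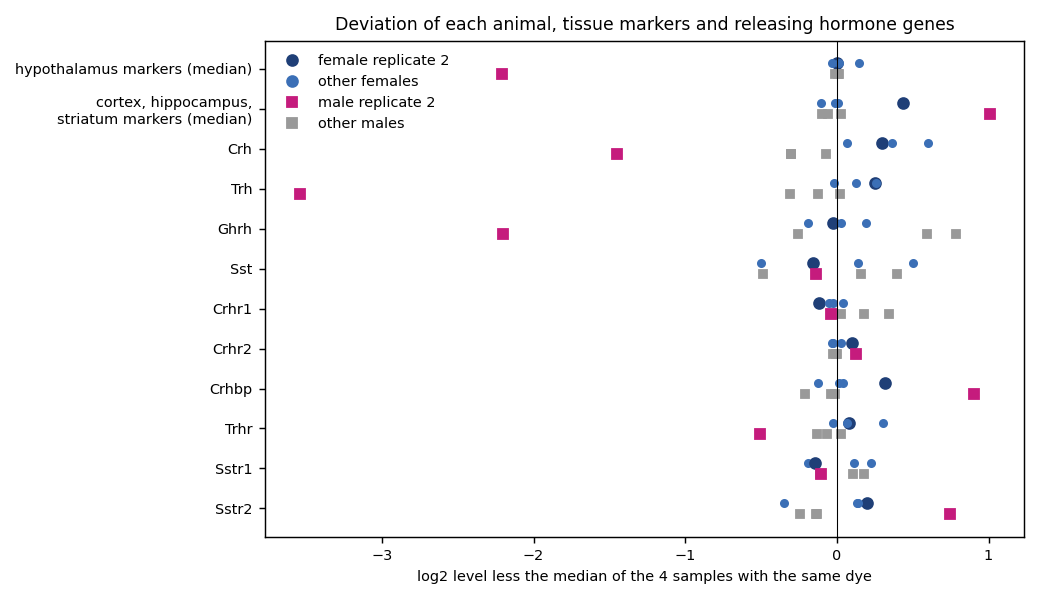
Log2 level less the median of the 4 samples with the same dye, for the hypothalamus markers and the cortex, hippocampus and striatum markers (medians of 16 genes each) and the 10 genes, with females drawn above males in each row. Male replicate 2 lies at -2.20 for the hypothalamus markers, -3.54 for Trh and -2.20 for Ghrh, at 1.01 for the cortex, hippocampus and striatum markers, and at 0.91 for Crhbp.

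Crhr1, which encodes the main CRH receptor of the pituitary and forebrain, was dim, with a fitted ratio below 0 whose interval held 0. The net signal of its probe at chr10:93353354-93353413 (rn4) was 14.0 to 36.6 in females and 21.5 to 51.7 in males. Levels were 7.03, 6.97, 6.93 and 7.06 in female replicates 1 to 4, against 7.11, 6.95, 7.43 and 7.17 in male replicates 1 to 4. All females were below 3 of the 4 males, and male replicate 2 lay among the females. The fitted ratio was -0.17 ± 0.10 (unadjusted p 0.153). It was -0.23 with male replicate 2 left out (unadjusted p 0.0442), and -0.42 from the scanner software's own log ratio (unadjusted p 0.0972).

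Crhr2, which encodes the receptor for CRH and the urocortins, lay nearest to background. The net signal of its brighter probe, at chr4:83851526-83851585 (rn4), was 14.7 to 21.1 in females and 17.8 to 26.2 in males. Levels were 6.86 to 7.09 in females, against 6.86 to 7.01 in males. The groups overlapped, and the fitted ratio was -0.0066 ± 0.06 (95% interval -0.17 to 0.16). A second probe was well above background in 2 of 4 females and 4 of 4 males and gave -0.02 ± 0.06. The probes did not follow each other across samples (r = -0.253), and at this signal no animal can be ranked on Crhr2.

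Crhbp and Sstr2 had their highest level in male replicate 2. The probe that read Crhbp and the second of the Sstr2 probes are given here because both read that animal as the highest sample. The brighter Sstr2 probe and its levels follow with the somatostatin receptors. The Crhbp probe starts at base 932 of the reference transcript and the Sstr2 probe at base 1299, both in rn4 coordinates and on the strand of the gene.
Crhbp, chr2:25802015-25802074, minus strand: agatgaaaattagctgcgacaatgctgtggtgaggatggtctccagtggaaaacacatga
Sstr2, chr10:103253642-103253701, plus strand: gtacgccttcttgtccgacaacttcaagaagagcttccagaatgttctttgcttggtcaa

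Crhbp encodes a secreted protein that binds CRH and keeps it from its receptors. Levels were 8.55, 8.32, 8.38 and 8.02 in female replicates 1 to 4, against 7.79, 9.41, 7.99 and 8.47 in male replicates 1 to 4. Male replicate 2 was the highest sample, at 0.91 less its dye's median. The ratios of 0.75, -1.09, 0.39 and -0.45 on arrays 1 to 4 changed sign with the dye, and the dye term of -0.67 had an adjusted p of 0.0548 (limma, Benjamini-Hochberg). The fitted ratio was -0.10 ± 0.14 (unadjusted p 0.516). It was 0.06 without replicate 2 and 0.17 with only male replicate 2 left out, so its direction turned as well. The latter fit kept female replicate 2, the highest of the females at 0.32 less its dye's median.

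Trhr, which encodes a receptor for TRH, was higher in females on 3 of 4 arrays. Levels from its probe at chr7:80095310-80095369 (rn4) were 8.13, 8.43, 8.46 and 8.42 in female replicates 1 to 4, against 8.22, 7.66, 8.28 and 8.19 in male replicates 1 to 4. Of the females 3 were above every male, and female replicate 1 lay among the males. The fitted ratio was 0.27 ± 0.12 (95% interval -0.05 to 0.60, unadjusted p 0.0815, adjusted p 0.555, limma with Benjamini-Hochberg). Male replicate 2 was again the lowest, at -0.50 less its dye's median, and the ratio was 0.15 without that animal and 0.41 without replicate 4 (unadjusted p 0.0106). From the scanner software's log ratio it was 0.58 (unadjusted p 0.102). Without replicate 4 the gene's own error came from arrays 1 and 3 alone, because array 2 was fitted exactly.

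The somatostatin receptors showed no sex difference beyond their error. Sstr1, read at chr6:78806638-78806697 (rn4), had levels of 11.00, 10.93, 11.41 and 11.19 in female replicates 1 to 4, against 10.96, 11.08, 11.26 and 11.29 in male replicates 1 to 4. The groups overlapped, and the fitted ratio was -0.015 ± 0.06 (95% interval -0.19 to 0.16). Sstr2, read by its brighter probe at chr10:103254378-103254437, had levels of 9.86, 10.61, 10.34 and 10.55 in female replicates 1 to 4, against 10.28, 10.95, 10.17 and 10.08 in male replicates 1 to 4. The highest sample was male replicate 2 and the lowest was female replicate 1, so both extremes came from single animals. The fitted ratio was -0.03 ± 0.18 (95% interval -0.52 to 0.47), and the second probe, whose sequence is given above, had -0.13 ± 0.19. That probe's levels were 8.42, 8.75, 8.87 and 8.99 in female replicates 1 to 4, against 8.75, 9.37, 8.76 and 8.67 in male replicates 1 to 4. It too was highest in male replicate 2 and lowest in female replicate 1, and the probes followed each other at r = 0.925. The Sstr2 ratio was 0.18 without replicate 2, 0.22 with only male replicate 2 left out and 0.12 without replicate 1.

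**Figure D4:**
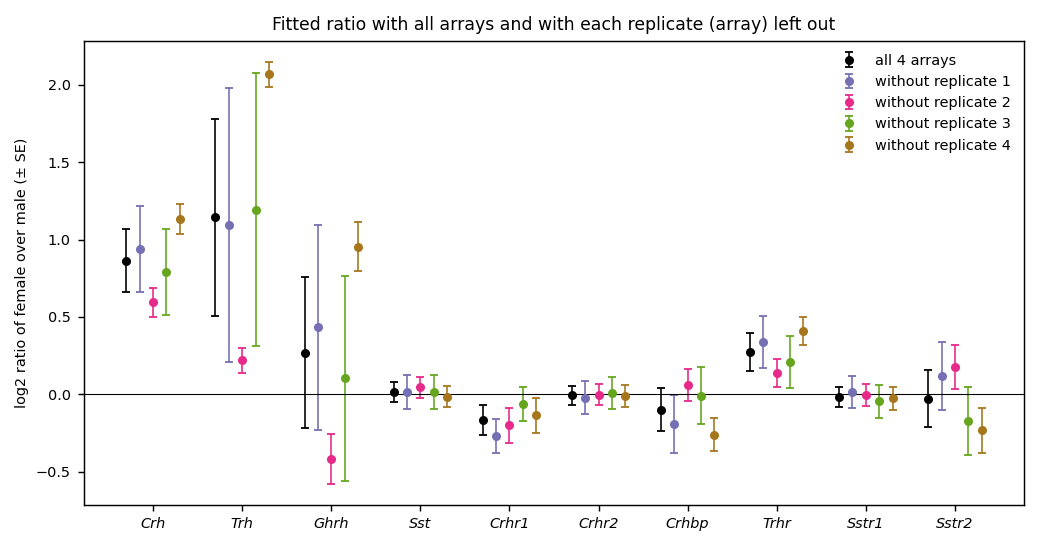
Fitted log2 ratio of female over male with its standard error for the 10 genes. Black is from all 4 arrays and colours are from fits with each array left out in turn. A gene's own error in a coloured point comes from 2 arrays alone, since the other array kept is fitted exactly. Crh stays above 0 in all 5 fits, from 0.59 to 1.13, Trh moves between 0.22 without replicate 2 and 2.07 without replicate 4, and Ghrh turns to -0.42 without replicate 2.

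Across the 10 genes, 5 fitted ratios were above 0 and 5 below, and their median was 0.0040, against 0.02 over the 14603 genes tested. All 10 genes passed the filter on dim probes. The ratio changed sign with the dye on all 4 arrays in 4 members (Sst, Crhr2, Crhbp and Sstr1), as it did in 42.4% of genes. Without replicate 4, 4 members (Crh, Trh, Ghrh and Trhr) were below an unadjusted p of 0.05 and Crh and Trh passed the adjusted threshold (limma, Benjamini-Hochberg), against 31.1% and 7.53% of all genes. A gene's own error in that fit came from arrays 1 and 3 alone, because array 2 was fitted exactly. With male replicate 2 left out, 3 members (Crh, Trh and Crhr1) were below an unadjusted p of 0.05, against 10.2% of genes.

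Pairs of members were compared by Pearson's r over the 8 samples with the dye means removed, as a description of animals that share arrays and 1 outlying library. Crh and Trhr followed each other at r = 0.937 over 8 samples and 0.764 over the 7 without male replicate 2. Sst and Sstr1 kept their likeness, at 0.808 and 0.814. Trh and Ghrh stood at 0.841 over 8 samples and at -0.858 over 7, and Trh and Crhbp at -0.843 and 0.701. The last 2 pairs therefore turned sign with that library.

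The genes most like each hormone gene were found among 13834 genes by the same measure. For Crh they were Phf13 (r = 0.993), RGD1563440 (0.992) and Sp1 (0.990), and these stayed between 0.972 and 0.986 over 7 samples. For Trh they were Etnk2, Nap1l5 and Avp, each at 0.997 over 8 samples, and at 0.910, 0.874 and 0.888 over 7. Avp encodes vasopressin, made like TRH in the paraventricular nucleus. For Ghrh they were Gstm6l (0.994), Cryba4 (0.974) and C8h11orf65 (0.972), and over 7 samples 0.976, 0.859 and 0.938. For Sst they were Snx32 (0.977), Dcaf5 (0.965) and Rnf130 (0.961), which over 7 samples were 0.981, 0.968 and 0.962.

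The rest of each hormone system showed few differences. An unadjusted p below 0.05 with a higher level in females was found for 5.01% of all genes, and with a higher level in males for 3.51%. Of 8 other CRH system genes tested, 5 were above 0 and 3 below, 0 were below that p in either direction, and the median log2 ratio was 0.04. The urocortin genes Ucn3 and Ucn, which encode CRH receptor ligands, had ratios of 0.33 ± 0.18 and 0.13 ± 0.08, and Hsd11b1, a glucocorticoid-activating enzyme, had -0.30 ± 0.23. With male replicate 2 left out these were 0.016 ± 0.19, 0.10 ± 0.09 and 0.10 ± 0.09, so Hsd11b1 turned direction. The list's median was then 0.10. Here and in the lists below, that fit took the other 7 samples as separate channels with no array block. Ucn3 was well above background in 4 of 4 females and 3 of 4 males. It thus entered the fit only through the females, and its ratio is a description.

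Of 10 other TRH system genes, 7 were above 0 and 3 below, with a median of 0.08. One was below an unadjusted p of 0.05, Pgpep1, which encodes a peptidase that removes pyroglutamate from peptides such as TRH. Its ratios were 0.45, 1.31, 0.26 and 0.21 on arrays 1 to 4, all above 0, and the fit gave 0.56 ± 0.20 with an unadjusted p of 0.0468 and an adjusted p of 0.555 (limma, Benjamini-Hochberg). Trhde, the ectoenzyme that degrades TRH, had -0.15 ± 0.09, and the second TRH receptor gene Trhr2 had 0.14 ± 0.10. Pgpep1 stood at 0.40 ± 0.12 without male replicate 2 (unadjusted p 0.0131), Trhde at -0.03 ± 0.07 and Trhr2 at 0.09 ± 0.16, and the median of the 9 genes then tested was 0.02.

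Of 9 growth hormone axis genes, 5 were above 0 and 4 below, with a median of 0.03. Gh1, the growth hormone gene, was well above background in 4 of 4 females and in 2 of 4 males, so it entered the fit only through the females, and its ratio of 0.63 ± 0.22 is a description. Apart from it, 0 genes of the list were below an unadjusted p of 0.05. Igf1, the growth factor made under growth hormone, had -0.28 ± 0.14, and Ghr, the growth hormone receptor gene, had 0.13 ± 0.07. Without male replicate 2, Gh1 stood at 0.54 ± 0.35, Ghr at 0.04 ± 0.11 and Igf1 at -0.53 ± 0.19 (unadjusted p 0.0289), and the median was 0.04. Of 7 other somatostatin system genes, 3 were above 0, 4 below and 0 below an unadjusted p of 0.05, with a median of -0.04. Cort, the gene of the related peptide cortistatin, had -0.36 ± 0.28, Nos1 had 0.08 ± 0.06 and the receptor gene Sstr3 had -0.19 ± 0.19. On array 2 alone the ratios of Cort and Sstr3 were -1.40 and -1.61. With male replicate 2 left out Cort turned to 0.48 ± 0.35 and Sstr3 to 0.16 ± 0.15, Nos1 had 0.05 ± 0.06, and the median turned to 0.05.

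Of 9 peptide processing genes, 6 were above 0 and 3 below, with a median of 0.06 and 0 below an unadjusted p of 0.05. Those with the smallest p were Pcsk2, a prohormone convertase, at -0.47 ± 0.20, the peptidase gene Prep at -0.36 ± 0.20 and Cpe, carboxypeptidase E, at -0.35 ± 0.24. On array 2 alone their ratios were -1.52, -1.03 and -1.50, and without male replicate 2 they were -0.28 ± 0.10 (unadjusted p 0.0313), -0.28 ± 0.15 and -0.11 ± 0.11. Of 14 neuroendocrine transcription factors, 9 were above 0 and 5 below, with a median of 0.06 and 0 below an unadjusted p of 0.05. Sim1, which entered the fit only through the females, and Otp, only through the males, are among the 14. Hmx2 had 0.35 ± 0.16, Sim2 had 0.21 ± 0.10 and Crem had 0.19 ± 0.11, against 0.06 ± 0.09, 0.06 ± 0.11 and 0.14 ± 0.10 with male replicate 2 left out. Without male replicate 2 the medians of these lists were -0.07 and -0.04.

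Of the 12 lists, the hypothalamus markers had the median that moved most when male replicate 2 was left out. Of 16 hypothalamus markers 14 were above 0, with a median of 0.61, and Tac3 (0.49 ± 0.09), Kiss1 (0.48 ± 0.09) and Gnrh1 (0.99 ± 0.20) were below an unadjusted p of 0.05. Sim1 and Rax entered the fit only through the females and Otp only through the males, so counts and medians that hold them are descriptions. Without male replicate 2, 7 of the 16 were above 0 and the median was -0.01. Gnrh1 then had 0.58 ± 0.27 (unadjusted p 0.0689), Tac3 had 0.39 ± 0.08 and Kiss1 had 0.38 ± 0.15. The smallest p of the list was then that of Hcrt, which encodes orexin, in the other direction at -0.65 ± 0.13 (unadjusted p 0.0019), against 0.06 ± 0.57 with all 4 arrays, and it is named here after its values were seen. Of 16 markers of cortex, hippocampus and striatum 9 were below 0, with a median of -0.18, and Cux2 (-0.26 ± 0.06) and Neurod6 (-0.96 ± 0.32) were below that p, while Drd2 had 0.44 ± 0.18. Without male replicate 2, 13 of these 16 were above 0, the median was 0.16, Neurod6 turned to 0.65 ± 0.91, Cux2 had -0.21 ± 0.21 (unadjusted p 0.351) and Drd2 had 0.34 ± 0.14 (unadjusted p 0.0435). That fit kept female replicate 2, whose median deviation over these markers was 0.44, the highest of the samples kept. Of 6 thalamus markers 5 were above 0, with a median of 0.13 and 0 below that p, led by Lef1 (0.22 ± 0.12), Slc17a6 (0.59 ± 0.42) and Calb2 (0.49 ± 0.39). Gbx2 of that list entered the fit only through the males. Of 10 pituitary markers 9 were above 0, with a median of 0.14, and apart from Gh1, described above, 0 were below that p. Gh1, which entered the fit only through the females, and Fshb, only through the males, are among the 10. Tbx19 had 0.16 ± 0.12 and Pomc had 0.63 ± 0.55. The medians of the thalamus and pituitary markers were -0.0055 and -0.09 without male replicate 2. Lef1 then had 0.10 ± 0.11, Slc17a6 had -0.03 ± 0.07, Calb2 had 0.02 ± 0.13, Tbx19 had -0.09 ± 0.12 and Pomc had -0.17 ± 0.10.

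Of 8 inhibitory interneuron markers, of which Sst is one, 5 were above 0, with a median of 0.03 and 0 below an unadjusted p of 0.05, led by Vip (0.19 ± 0.10), Lhx6 (0.21 ± 0.24) and Gad2 (0.11 ± 0.13). Of 6 markers of choroid plexus and ependyma 3 were above 0, with a median of 0.01. Tmem212 (0.33 ± 0.09) and Ttr (-1.79 ± 0.53) were below that p, in opposite directions, and Clic6 had -0.15 ± 0.10. Clic6 was well above background in 3 of 4 females and 4 of 4 males. It thus entered the fit only through the males, and its ratio is a description. Without male replicate 2 the medians of these lists were 0.06 and -0.18, and Ttr stood at -1.98 ± 1.01 (unadjusted p 0.0904) and Tmem212 at 0.24 ± 0.14 (unadjusted p 0.133). Vip then had 0.27 ± 0.11 (unadjusted p 0.0393), Lhx6 had 0.27 ± 0.40, Gad2 had 0.02 ± 0.18 and Clic6 had -0.22 ± 0.11.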

How the data were processed

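Total RNA from 8 hypothalami was hybridized as 1 female and 1 male per array to 4 Agilent arrays, and the labels give each sample's dye. The scans were read out by Agilent Feature Extraction 10.7.3.1, per the submitters' processing notes. The deposited array files hold intensity values per spot and local background as scanned, processed intensity values, and a log10 ratio of the red over the green processed signal, per the file headers. The authors' deposited value table holds log2 values. Each equals log2 of median signal less median background, minus 1 constant per column, to within 0.01 for 100% of values, and each column has a median of 0.

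Mean signals were background-corrected with normexp (offset 50) and loess-normalized within arrays with limma 3.58.1 under R 4.3.3 and the package data.table (version 1.17.8). Spots that the software marked as outliers, 931 to 1096 per array, were dropped and the spots of a probe averaged. A probe had to have more than 0.5 of its spots well above background in every sample of one sex or the other. A linear model with terms for sex and dye was fitted to each probe's within-array log2 ratios of female over male. Variances were moderated over all probes by limma's empirical Bayes step. Each standard error, interval and p therefore borrows from the other probes. Benjamini-Hochberg adjustment covered 21995 probes (threshold 0.05). The brightest probe stood for its gene (14603 genes), and levels were scaled between arrays by Aquantile. Accessions named 17328 probes and the files 5371, and 7668 went unnamed. Errors are these moderated standard errors over 4 arrays, whose number limits precision, or over the arrays kept where an array was left out. With only male replicate 2 left out they come from 7 samples fitted as separate channels. That fit has no array block, so it takes array mates as independent. The labels number the animals and say nothing more of how they were drawn.

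A female and a male are paired by their shared array, which is the block of the fit. Array mates were also compared by how far each lay from the mean of its sex, gene by gene, which gave an r across genes of 0.61, 0.68, 0.46 and -0.08 for arrays 1 to 4. The members and lists were chosen with earlier results of these data known. Genes named are the members, up to 3 genes of each list with the smallest p, and the 3 most like each hormone gene. There were 6 pathway lists (CRH, TRH, growth hormone and somatostatin systems, peptide processing, transcription factors) and 6 marker lists (hypothalamus, cortex with hippocampus and striatum, thalamus, pituitary, interneurons, choroid plexus with ependyma). The steps were tested on simulated data. Alternatives covered background, scaling, value source, dye term, block, filters, probe choice, variance model and replicates. The deviation from the dye's median and the fit without male replicate 2 were chosen after seeing the data. Figures used matplotlib 3.10.9 under Python 3.11.15.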

Additional observations from a re-analysis of the deposited data

Results flagged for a closer look

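Of 20 groups of 4 animals, 1 per gene and sex, 4 held a sample far from the other 3, on the log2 level less the median of the samples in the same dye. For independent, normally spread values chance gives about 1 in 20. The groups here reuse the same animals and a median taken over them, so that rate need not hold. The Crh level of male replicate 2 was -1.45, against -0.30 to -0.07 in the other males. The Trh level of male replicate 2 was -3.54, against -0.31 to 0.02 in the other males. The Sstr2 level of female replicate 1 was -0.35, against 0.13 to 0.20 in the other females, and that of male replicate 2 was 0.74, against -0.25 to -0.13 in the other males. So 3 of the 4 were the same animal, whose hypothalamus marker median was -2.20. The part of its tissue markers in these values was not tested.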

How the results depend on the processing

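Crh and Trh kept a ratio above 0 in all 17 alternatives run, from 0.57 to 1.13 and from 0.22 to 2.07. Trhr did so from 0.14 to 0.58. Several alternatives left these ratios unchanged. With balanced dyes, dropping the dye term or the block, or changing the filter or variance model, cannot move them. Keeping outlier spots did not either, nor, for Trh and Trhr with 1 probe each, averaging a gene's probes. The unadjusted p of Crh missed 0.05 in 2 of the 17. With 1 replicate left out in turn, members below an unadjusted p of 0.05 numbered 0 to 4. Members past the adjusted threshold numbered 0 to 2 and genes past it 0 to 1093, each count highest without replicate 4. In each of these fits 1 array was alone in its dye order and was fitted exactly. A gene's own error then came from the other 2 arrays. The ratios ran from -0.42 to 0.95 for Ghrh, -0.016 to 0.045 for Sst, -0.023 to 0.0094 for Crhr2, -0.26 to 0.061 for Crhbp, -0.044 to 0.015 for Sstr1 and -0.23 to 0.18 for Sstr2 (0.12 without replicate 1), and the median over members from -0.013 to 0.066. With no replicate block and male replicate 2 left out, 3 members were below an unadjusted p of 0.05, Ghrh turned to -0.40, Sst to -0.028, Crhr2 to 0.032, Crhbp to 0.17 and Sstr2 to 0.22. The pairing by array changed no other call: with no replicate block the Crh ratio was 0.86 with an unadjusted p of 0.0161, and 1 member and 1086 genes were below 0.05. With no term for dye, 0 members and 405 genes were, against 1 and 1244. Median centring turned Sst to -0.012 and Crhr2 to 0.043, and the value table, which lacked Crhr1 and Crhr2 in this fit, turned Sst to -0.044. The scanner software's log ratio turned Sst to -0.11 and the median over members to -0.037, which was -0.0033 with no background correction and -0.00041 with an offset of 16. Genes below an unadjusted p of 0.05 split into 731 higher and 513 lower in females, but 244 and 532 under median centring, 430 and 616 with the scanner's ratio, and 156 and 1012 with the value table. The causes were not tested. Low signal limits Crhr1 and Crhr2 most.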
